A study of Saccharomyces cerevisiae with 44 samples.

Results

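The mitochondrial genome of budding yeast carries 8 genes that encode proteins, and all 8 were measured here among 6692 counted features in 44 RNA libraries. They were chosen by identity: the counted rows of COX1 (Q0045), COX2 (Q0250), COX3 (Q0275), COB (Q0105), ATP8 (Q0080), ATP6 (Q0085), OLI1 (Q0130) and VAR1 (Q0140). Wild-type W303 cells, a common laboratory background, were grown at 30 °C without synchronisation and exposed to a replication inhibitor or its vehicle until the time of half-maximal inhibition set for each agent. In rich YEPD medium the treated groups were HU at 50 mM and MMS at 0.002%, both set against water (C0), and CPT at 100 µg/mL, set against 1 N NaOH (CC). In synthetic SC medium they were AD at 50 µg/mL against 2% acetone (CA), DOX at 25 µg/mL against water (CD) and MTX at 150 µg/mL against 0.1 N NaOH (CM). The labels give the agents by these abbreviations only. HU, MMS, CPT, DOX and MTX are usually read as hydroxyurea, methyl methanesulfonate, camptothecin, doxorubicin and methotrexate. Each of the 11 groups had 2 independent cultures, and each culture gave 2 technical libraries whose counts were summed, so n = 2 per group throughout.

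Yeast mitochondrial DNA is transcribed by a single-subunit polymerase, Rpo41, with its partner Mtf1, from a conserved stretch of 9 bases, and the long primary transcripts are cut into messages by removal of tRNAs and by processing at their ends. COX1, COX2 and COX3 encode the catalytic core of cytochrome c oxidase (complex IV), COB encodes cytochrome b of complex III, ATP6, ATP8 and OLI1 encode membrane subunits of the ATP synthase, and VAR1 encodes a protein of the mitochondrial small ribosomal subunit. COX1, ATP8 and ATP6 share a primary transcript, as do OLI1 and VAR1. The remaining subunits of these complexes, the mitochondrial ribosomal proteins, and the factors that splice, stabilise and translate each message come from nuclear genes. Growth on glucose, the carbon source of both media as commonly made, represses respiration.

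The start sequences and the letters of ATP8, OLI1 and part of VAR1 are shown. The genes' levels are read below against their transcription units and base composition. The 9-base consensus ATATAAGTA (capitals, exact match) occurred 11 times on the plus strand and 3 times on the minus strand of the RefSeq R64 mitochondrial genome of 85779 bases. All 8 genes lie on the plus strand. The copies nearest upstream of COX1, COB and OLI1, each with 15 bases before and 6 after, read as follows, and OLI1 has a pair of copies.
COX1, chrM:13334-13363: aaataataagtattgATATAAGTAatagat
COB, chrM:34863-34892: attataagaaatattATATAAGTAatatat
OLI1 farther copy, chrM:46056-46085: tctttattaatattaATATAAGTAatatat
OLI1 nearer copy, chrM:46134-46163: atcttatacacatttATATAAGTAtatata
The match began 469 bases before COX1, 574 before OLI1 and 1662 before COB. Within 1000 bases before the start codon, 2 of the 8 genes held an exact match, against 11.5% of all plus-strand windows of that length. ATP8 and ATP6 began 14317 and 15138 bases downstream of the COX1 copy, and VAR1 2752 bases downstream of the nearer OLI1 copy. COX2 and COX3 had no exact match closer than 8374 and 13829 bases, which says only that these letters are not there.

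The coding sequences of ATP8 (chrM:27666-27812) and OLI1 (chrM:46723-46953) and the first 300 bases of VAR1 (chrM:48901-49200) are printed with every G and C in capitals. They span the highest and the lowest levels found.
ATP8: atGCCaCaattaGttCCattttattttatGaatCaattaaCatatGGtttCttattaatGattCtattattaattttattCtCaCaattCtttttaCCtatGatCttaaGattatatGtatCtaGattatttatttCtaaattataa
OLI1: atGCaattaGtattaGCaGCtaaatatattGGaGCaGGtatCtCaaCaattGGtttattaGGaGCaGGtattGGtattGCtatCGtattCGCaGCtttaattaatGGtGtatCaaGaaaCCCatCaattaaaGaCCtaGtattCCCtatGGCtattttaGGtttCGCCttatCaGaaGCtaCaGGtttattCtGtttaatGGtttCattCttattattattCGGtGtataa
VAR1: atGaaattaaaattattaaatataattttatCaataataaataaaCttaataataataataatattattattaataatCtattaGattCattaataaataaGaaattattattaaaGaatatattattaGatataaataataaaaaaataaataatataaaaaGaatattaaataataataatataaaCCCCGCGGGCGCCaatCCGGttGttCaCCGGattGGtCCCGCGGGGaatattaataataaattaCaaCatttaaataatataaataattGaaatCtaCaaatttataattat
OLI1 had the lowest share of A and T of the 8 counted stretches, at 66.7%, and VAR1 the highest, at 89.6%. In the printed part of VAR1 the capitals gather in one G- and C-rich block, and long runs before it hold few.

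The counted rows do not cover all genes equally, which limits what each row measures. The rows are single intervals, and reads that touched more than one row were left out. COX1 (chrM:13818-26701, 12884 bases) contains 6 rows for reading frames inside its introns, so 2434 bases, 18.9% of the row, could receive counts, and 633 of these are coding. COB (chrM:36540-43647, 7108 bases) contains 3 such rows, which left 1396 bases, 19.6%, of which 402 are coding. The COX1 and COB values therefore combine exons near the 3′ end with the introns between them, and spliced and unspliced RNA cannot be told apart. The 9 intron rows themselves were at 0 in all 44 libraries because they lie wholly within overlaps. COX2 (chrM:73758-74513) lost 19 bases to the neighbouring row Q0255, and COX3 (chrM:79213-80022), ATP6 (chrM:28487-29266), ATP8, OLI1 and VAR1 (chrM:48901-50097) overlapped no other row.

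**Figure D1:**
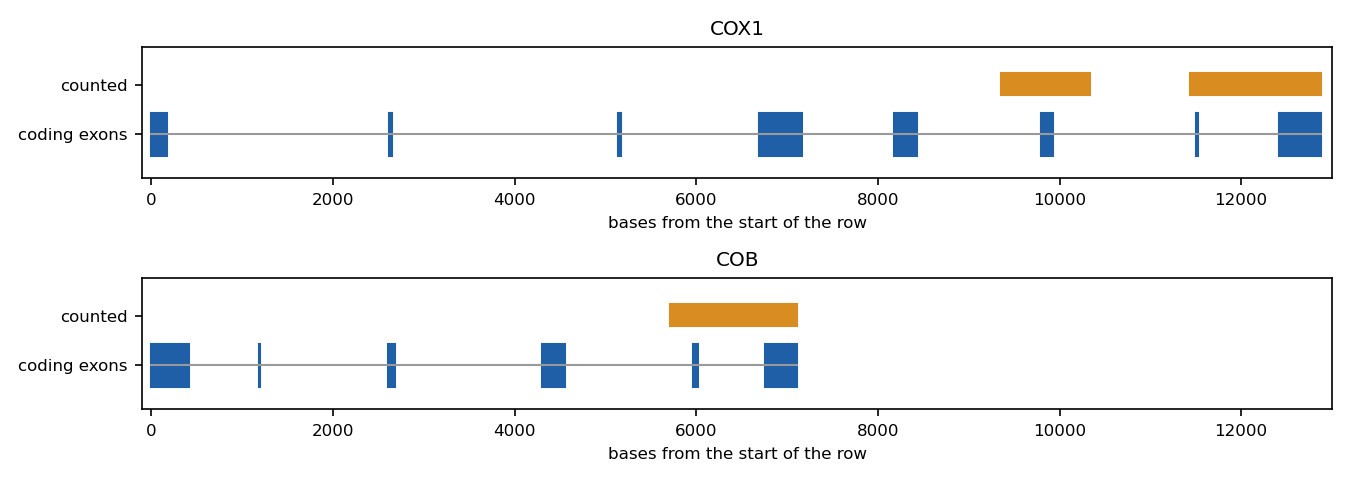
Map of the COX1 and COB rows, in bases from the row's start: blue boxes are coding exons and orange boxes are the stretches that could receive counts. Counting was restricted to 18.9% of the COX1 row and 19.6% of the COB row, both near the 3′ end.

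Library totals ran from 6.82 to 15.08 M counted reads (M, 1000000 reads), and the 8 genes together took between 0.182% and 0.536% of them. The RNA was total RNA by hot phenol, and no label or header used here says whether a selection step followed, so the share relative to nuclear messages is specific to these libraries. In bulk RNA, fewer cells with mitochondrial DNA and less message per cell cannot be told apart. One library stood apart: the second technical library of CPT culture 2 had the lowest total, 6.821 M, and 0.536% of reads in the 8 genes, while its partner from the same culture had 11.54 M and 0.362%. In 16 of the 22 technical pairs the shallower library had the higher share. The part of depth in the differences below was not tested, and summed raw counts are given beside the comparisons with calls.

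Levels differed widely among the genes. Per counted kilobase, the median level over the 22 cultures was 1923 counts per 1000000 counted reads (CPM, scaled by TMM) for OLI1, 1067 for COX3, 506 for COX2, 301 for COX1, 205 for COB, 190 for ATP6, 6.4 for VAR1 and 3.21 for ATP8. With all reads of the row divided by the counted coding length alone, COX1 had 1159 and COB 713. Reads on introns stay in these values, so the places of both genes in this order depend on the denominator. In counted reads, ATP8 was therefore low between COX1 and ATP6, with which it shares a transcript, and VAR1 was low beside OLI1. Whether the ATP8 and VAR1 rows follow the amount of message was not tested. ATP8 gave 0 to 32 counts per library and was at 0 in 4 of 44 libraries, and VAR1 gave 34 to 287. ATP8 is 147 bases long and OLI1 231. Across the 8 genes, the level per counted kilobase fell with the A and T share of the counted stretch (Spearman rho -0.9, n = 8 genes measured in the same libraries, as a description). When share and length were taken over coding bases, with reads on introns still counted, rho was -0.98. ATP8, at 0 to 43 counts per culture, had the widest intervals in every comparison. VAR1 had standard errors of 0.41 to 0.43 in the fit over all groups, in which its CPT cultures differed most, with 109 and 385 counts.

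Most of the 8 genes moved together across groups. Over the 11 group means, log2 CPM of COX1, COX2, COX3, COB, ATP6 and OLI1 correlated with one another at Pearson r of 0.87 to 0.99, whereas r between VAR1 and these 6 was 0.62 to 0.88, and r between ATP8 and the other 7 was 0.38 to 0.62. All these points share libraries and depth. The nuclear genes most like the mean of the 8, among 4928 with a standard name and at least 10 CPM, were ARO80 (r = 0.929), XRN1 (r = 0.921), NUM1 (r = 0.907), AHA1 (r = 0.887) and IDP1 (r = 0.884) over the same 11 groups.

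By the summed share of counted reads, the groups ranked C0 (0.199% ± 0.0224, SD, n = 2), MMS (0.212% ± 0.0101), MTX (0.236% ± 0.0105), HU (0.253% ± 0.0108), CC (0.296% ± 0.0326), CA (0.298% ± 0.0159), CM (0.300% ± 0.0237), CD (0.301% ± 0.000656), AD (0.340% ± 0.0126), CPT (0.365% ± 0.0874) and DOX (0.511% ± 0.0146). The cultures of neighbouring groups overlapped between C0 and MMS, along CC, CA, CM and CD, and between AD and CPT. DOX lay above every other group, and its 2 cultures overlapped with none.

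**Figure D2:**
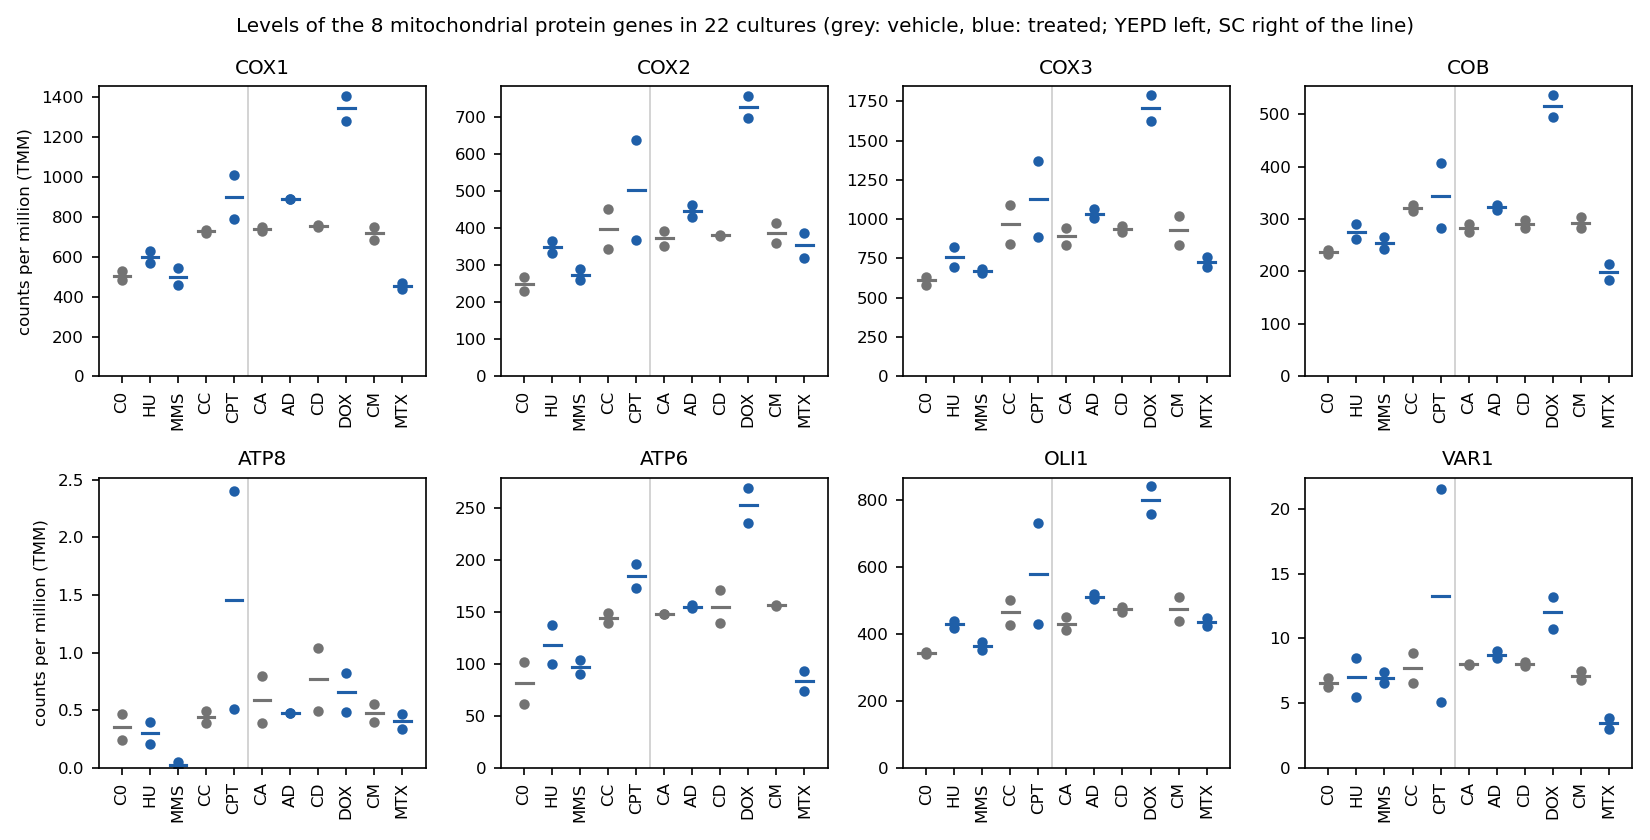
Level of each gene (y axis, TMM-scaled CPM) in the 11 groups (x axis). Points are the 2 cultures, bars their mean, grey vehicle and blue treated, and the line separates YEPD from SC. The DOX cultures are the highest for COX1, COX2, COX3, COB, ATP6 and OLI1.

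DOX gave the broadest difference. COX1, COX2, COX3, COB, ATP6 and OLI1, 6 of the 8 genes, rose by 1.63- to 1.91-fold against the water vehicle in SC, and ATP8 and VAR1 did not pass the test (edgeR quasi-likelihood test, Benjamini-Hochberg adjusted over 6344 genes). Among all genes tested, 41.2% passed in this comparison and 21.0% passed as higher, so calls were common. The cultures of 7 of the 8 genes lay above both vehicle cultures, as did those of 39.2% of all genes. The median log2 fold change was 0.79 over the 8 genes and -0.02 over all genes. COX1, the core subunit that binds heme and copper, had 1409 and 1282 CPM in the DOX cultures and 762 and 751 in the CD cultures. Every DOX culture was above both vehicle cultures, and the log2 fold change was 0.83 ± 0.12 (SE; adjusted p = 7.85e-05). COX2, which takes electrons from cytochrome c, had 756 and 697 CPM against 378 and 381, a log2 fold change of 0.94 ± 0.20 (adjusted p = 0.00139). COX3 rose by 0.86 ± 0.17 (adjusted p = 0.00106) and COB by 0.83 ± 0.14 (adjusted p = 0.000262). OLI1, the ring subunit of the ATP synthase, had 843 and 758 CPM against 466 and 482 (0.76 ± 0.17, adjusted p = 0.00264). ATP6, which forms the proton path beside that ring, had 269 and 236 CPM against 171 and 139 (0.70 ± 0.20, adjusted p = 0.0113). VAR1, at 13.2 and 10.7 CPM against 7.83 and 8.21, had a log2 fold change of 0.58 with a 95% interval of -0.30 to 1.45 (adjusted p = 0.279), and its groups did not overlap either. ATP8, with 13 and 8 counts against 26 and 11, had an interval of -1.63 to 1.12.

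Depth moved with this comparison. The DOX libraries held 8.068 to 8.911 M counted reads and the CD libraries 10.79 to 12.9 M, and features overlapping the ribosomal DNA took 1.962% to 2.255% against 1.247% to 1.407%. The raw summed count of the 8 genes was 41761 to 46715 per DOX library against 31273 to 37467 per CD library, a ratio of 1.22 in raw counts and 1.70 as a share of reads. The ATP6 call was lost without DOX culture 1 (adjusted p = 0.0823) or without CD culture 2 (adjusted p = 0.11). In the authors' deposited table, 7 of the 8 genes had an adjusted p under 0.05, all higher, against 59.7% of its genes in either direction. They included VAR1 at a log2 fold change of 0.59 (adjusted p = 0.00215). Whether that table takes cultures or technical libraries as replicates was not established here, so its p-values may rest on a larger n.

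The nuclear partners did not move as one with the mitochondrial genes under DOX, where 21.0% of all genes rose and 20.2% fell. Of 75 nuclear genes for mitochondrial ribosomal proteins, 54 fell and none rose (median log2 fold change -0.72, against -0.02 over all genes), among them RSM26 (-1.95 ± 0.23, adjusted p = 1.07e-05) and MRPL44 (-1.41 ± 0.17, adjusted p = 1.1e-05). Of 17 assembly factors of complexes III, IV and V, 13 fell, with PET117 at -2.0 ± 0.32 (adjusted p = 0.000137) and COX10, which makes heme A precursor for complex IV, at -1.04 ± 0.18 (adjusted p = 0.000255). Of 20 genes for mitochondrial transcription and RNA processing, 11 fell, with CCM1 at -1.03 ± 0.15 (adjusted p = 7.5e-05) and AEP3 at -0.85 ± 0.13 (adjusted p = 0.000106). Nuclear subunits were mostly not called, and the share that rose was close to that of all genes. Of the ATP synthase, 3 of 14 rose, among them ATP3 by 1.06 and ATP5 by 0.85. Of complex III, 2 of 9 rose (QCR10 by 1.17 and QCR2 by 0.94). Of 10 of complex IV, COX13 and COX9 rose and COX26 fell. The median log2 fold changes of these lists were 0.36, 0.39 and 0.40 in that order, against -0.02 over all genes. Of 12 genes for mitochondrial DNA maintenance, 2 rose and 4 fell. ABF2, which packages that DNA, rose by 0.60 ± 0.13 (adjusted p = 0.00127) and CCE1 by 0.40, and MSH1 and MIP1, the mitochondrial DNA polymerase, were the fallen genes with the smallest p, at -0.93 and -0.45.

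MTX gave an uneven decrease. Against 0.1 N NaOH, COX1, COB and ATP6 fell, 3 of the 8 genes, where 19.8% of all genes passed and 9.0% passed as lower. COX1 had 468 and 437 CPM in the MTX cultures and 687 and 752 in the vehicle cultures, a log2 fold change of -0.67 ± 0.12 (adjusted p = 0.00168). ATP6 had 93.6 and 73.5 CPM against 157 and 156 (-0.91 ± 0.20, adjusted p = 0.00563). COB had 214 and 183 CPM against 283 and 303 (-0.56 ± 0.14, adjusted p = 0.0107). In 5 of the 8 genes, these 3, COX3 and VAR1, both MTX cultures lay below both vehicle cultures, as they did for 35.7% of all genes. COX2 and OLI1 had overlapping cultures, with intervals of -0.54 to 0.29 and -0.49 to 0.24. COX3 had a log2 fold change of -0.35 (adjusted p = 0.159).

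VAR1 had the lowest values of the study in this group, 3.84 and 3.01 CPM against 6.77 and 7.50 in the vehicle. Its 4 MTX libraries held 60, 38, 34 and 38 counts and its 4 CM libraries 90, 96, 83 and 93, with no overlap. The log2 fold change of -1.05 (95% interval -1.97 to -0.14) missed the threshold here (adjusted p = 0.0951). VAR1 was called when only these 2 groups were fitted (adjusted p = 0.00215). The authors' deposited table also called it (-1.04, adjusted p = 6.39e-06), with a replicate unit that was not established here. Depth was similar between the groups, with 10.94 to 12.81 M counted reads against 11.21 to 14.13 M, and the raw summed count was 22930 to 30439 against 31427 to 42875. The COB call was lost without MTX culture 2 (adjusted p = 0.135) or CM culture 2 (adjusted p = 0.0815), and the ATP6 call without MTX culture 2 (adjusted p = 0.0906).

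The proportions among the genes differed under MTX. The count ratio of COX1 to COX2 was 1.21 and 1.36 in the MTX cultures and 1.57 to 2.15 in the other 20 cultures. COB to COX2 was 0.555 and 0.573 against 0.638 to 1.05, ATP6 to COX2 was 0.243 and 0.230 against 0.265 to 0.470, and VAR1 to OLI1 was 0.00856 and 0.00713 against 0.0119 to 0.0294. In all 4 ratios, all 20 other cultures lay above both MTX cultures. OLI1 to COX2, at 1.16 and 1.32, lay within the range of the others, and so did ATP6 to COX1, which share a transcript, at 0.200 and 0.168. COX3 to COX2, at 1.96 and 2.17, overlapped the 2.08 to 2.54 of the others. Against the vehicle alone, with 2 cultures against 2, an exact permutation test cannot go below p = 0.333. The ratios were not tested against the 20 other cultures and are given as a description.

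**Figure D3:**
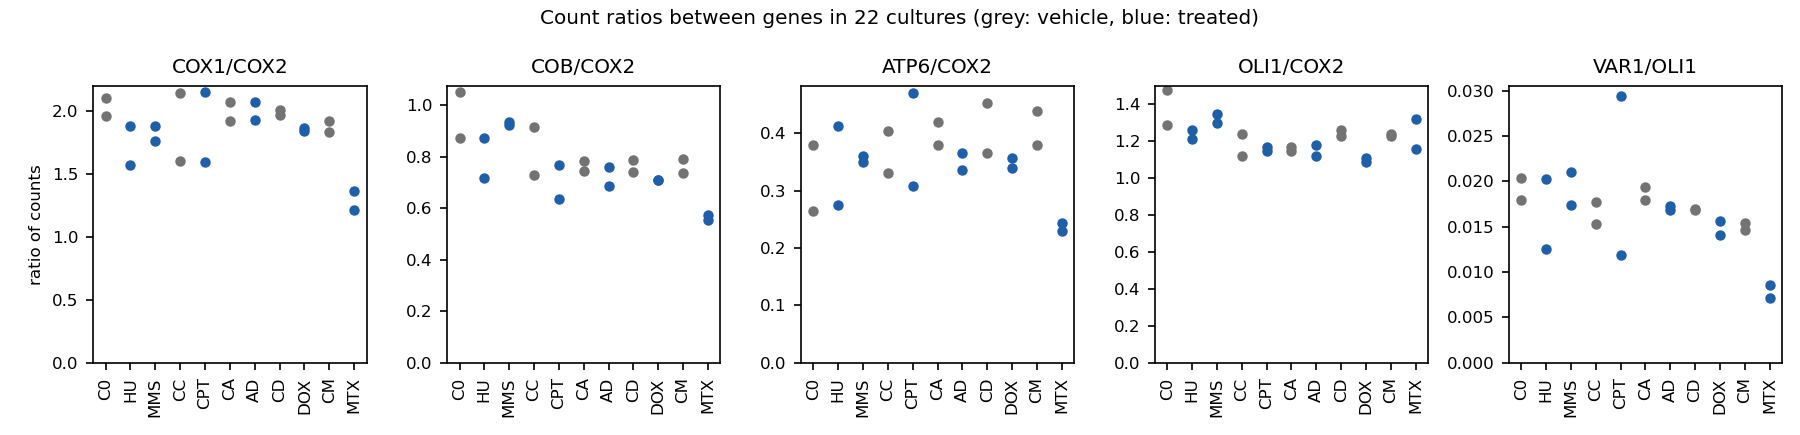
Ratio of raw counts between pairs of genes (y axis) in each of the 22 cultures, by group (x axis; grey vehicle, blue treated). The MTX cultures are the lowest for COX1, COB and ATP6 over COX2 and for VAR1 over OLI1, and lie inside the range for OLI1 over COX2.

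Nuclear subunits of the same complexes were mostly not called under MTX, and those called rose, where 10.8% of all genes rose and 9.0% fell. Of 14 ATP synthase subunits, 4 rose and none fell, with ATP14 at 1.26 ± 0.26 (adjusted p = 0.0032) and ATP19 at 1.03 ± 0.24 (adjusted p = 0.00607). Of complex III, 1 of 9 rose (QCR10 by 1.33), and of complex IV 2 of 10 rose (COX7 by 0.98 and COX9 by 0.68). The shares called were 28.6% for the ATP synthase, 11.1% for complex III and 20.0% for complex IV, against 19.8% of all genes in either direction. Of 20 genes for transcription and RNA processing, 4 fell, among them DSS1, the exonuclease of the mitochondrial degradosome, at -0.53 ± 0.12 (adjusted p = 0.00484), and MSS116, a helicase that helps the COX1 and COB introns to splice, at -0.51 ± 0.13 (adjusted p = 0.0103). Of 17 translational activators, 3 fell, including SOV1, needed for VAR1 expression, at -0.57 ± 0.11 (adjusted p = 0.00252), and AEP3 at -0.42 ± 0.13 (adjusted p = 0.0305). Of 75 ribosomal proteins, 3 rose and 1 fell. Of 12 genes for mitochondrial DNA maintenance, 1 rose and 3 fell. The share called was 20.0% for transcription and RNA processing and 17.6% for the translational activators, and all of these calls were lower. AEP3 is on both lists, so it counts in both shares. Of all genes, 19.8% were called in either direction and 9.0% as lower.

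The MTX and DOX responses, which use separate vehicles, differed from each other for 6 of the 8 genes, where 21.3% of all genes differed. The difference of log2 fold changes was -1.50 for COX1 (adjusted p = 3.63e-05). VAR1 (-1.63, adjusted p = 0.0627) and ATP8 did not pass. MTX and AD responses differed for COX1, COB and ATP6, where 8.29% of all genes differed. DOX and AD responses were not shown to differ for any of the 8, where 5.28% of all genes differed, and the COX1 difference of 0.57 had a 95% interval of 0.20 to 0.93 (adjusted p = 0.0666).

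In C0 cultures the genes were low relative to CD, although both vehicles are water and the labelled difference is YEPD against SC. COX1, COX2, COX3 and ATP6 were lower, 4 of the 8, where 20.1% of all genes passed and 8.87% passed as lower. COX1 had 527 and 483 CPM in C0 and 762 and 751 in CD (-0.58 ± 0.12, adjusted p = 0.00495). ATP6 had 102 and 61.0 CPM against 171 and 139 (-0.93 ± 0.20, adjusted p = 0.00637). COX3 (-0.62 ± 0.17, adjusted p = 0.021) and COX2 (-0.61 ± 0.20, adjusted p = 0.0389) were also lower, and in all 8 genes the C0 cultures lay below both CD cultures, as they did for 33.4% of all genes. COB (-0.29), OLI1 (-0.46), VAR1 (-0.28) and ATP8 did not pass. CC, the other YEPD vehicle, had 729 CPM of COX1 and lay among the SC vehicles, so the medium and the C0 cultures themselves cannot be told apart. Without C0 culture 2 none of the 4 was called (adjusted p from 0.075 for COX1 to 0.258 for COX2). COX2 and COX3 were not called without CD culture 1 or CD culture 2, ATP6 was not called without CD culture 1 (adjusted p = 0.0567), and COX2 was not called without C0 culture 1 (adjusted p = 0.0512). The 2 technical libraries of C0 culture 2 gave 898 and 414 counts of ATP6. The C0 libraries held 10.99 to 14.37 M counted reads and the CD libraries 10.79 to 12.9 M, and the mean raw count of the 8 genes per culture was 51512 in C0 and 70654 in CD, a ratio of 0.729.

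Nuclear respiratory genes were also lower in C0 than in CD, where 8.87% of all genes passed as lower. Of complex III subunits 8 of 9 were lower, of complex IV 7 of 10, of the ATP synthase 7 of 14 and of mitochondrial ribosomal proteins 52 of 75. In CC against C0 the median log2 fold changes of these lists were 0.51, 0.47, 0.62 and 0.30 in that order, with none called. The medium and the C0 cultures themselves cannot be told apart here either. QCR6 was lower by 1.78 ± 0.31 (adjusted p = 0.0017) and CBP4, an assembly factor of complex III, by 1.59 ± 0.26 (adjusted p = 0.00113).

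CC against C0 compared 1 N NaOH with water in YEPD, and none of the 8 genes was called, where 0.221% of all genes passed. All 8 fold changes were above 0. ATP6 had 139 and 149 CPM against 102 and 61.0 (log2 fold change 0.82, 95% interval 0.39 to 1.25, adjusted p = 0.0808), and COX1 736 and 721 against 527 and 483 (0.53, 0.27 to 0.79, adjusted p = 0.0642). Unadjusted p was under 0.05 for 6 of the 8 and for 17.1% of all genes. DESeq2 called COX1, COX2, COX3 and ATP6, and 221 genes in all, 3.61% of those it tested. CA against CD and CM against CD had no calls among the 8, with 0.0% of all genes called in each by edgeR. Unadjusted p was under 0.05 for 209 and 201 of all genes and for 0 of the 8 in both, and DESeq2 called 1 gene of all in the first and 0 in the second.

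HU and MMS, which share the C0 cultures, gave no calls among the 8 genes by edgeR or DESeq2. For HU, where 3.56% of all genes passed, the log2 fold changes ran from -0.14 for ATP8 to 0.54 for ATP6, and COX2 had 364 and 333 CPM against 268 and 230 (0.48, 95% interval 0.07 to 0.90, adjusted p = 0.221). Unadjusted p was under 0.05 for 2 of the 8 and for 16.0% of all genes. In the authors' deposited table COX2 (adjusted p = 0.00175) and OLI1 (adjusted p = 0.0245) passed for HU, as did 17.2% of its genes. That table's replicate unit was not established here. Without C0 culture 1, ATP6 was called for HU by edgeR (0.96, adjusted p = 0.0295, with 1.74% of all genes called), and without C0 culture 2 it had 0.24 (adjusted p = 0.689). For MMS, where 10.8% of all genes passed, 7 genes had log2 fold changes of -0.01 to 0.25, with COX1 at 542 and 458 CPM against 527 and 483. ATP8 had 0 and 1 counts in the MMS cultures and 7 and 10 in C0, which missed the threshold (adjusted p = 0.112), and was the one gene of the 8 with an unadjusted p under 0.05, against 24.6% of all genes.

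Nuclear subunits of complexes III and IV fell under MMS, where 4.7% of all genes fell. Of 9 nuclear complex III subunits 8 fell, with QCR7 at -1.69 ± 0.24 (adjusted p = 0.00018) and QCR10 at -2.65 ± 0.38 (adjusted p = 0.000235). Of 10 complex IV subunits 8 fell, with COX5A at -2.35 ± 0.28 (adjusted p = 4.18e-05), while COX5B, the alternative isoform used in low oxygen, rose by 1.11 ± 0.31 (adjusted p = 0.0277). In the same libraries COX1, COX2, COX3 and COB had 95% intervals within -0.28 to 0.55, and COX2's was the widest. None of the 14 ATP synthase subunits passed.

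CPT and AD gave no calls among the 8 genes by edgeR or DESeq2, with 2.81% and 3.14% of all genes called. For CPT, 2 genes had an unadjusted p under 0.05, against 15.5% of all genes, and the cultures differed widely: COX2 had 368 and 637 CPM and VAR1 5.09 and 21.5. Its culture 2 contains the library that stood apart, where VAR1 had 287 counts against 98 in the partner library and ATP8 32 against 11. With culture 2 taken from its deeper library alone, the log2 fold changes ran from -0.22 for VAR1 to 0.65 for ATP8, with none called. Without CPT culture 1, by contrast, COX1, COX2, ATP8, OLI1 and VAR1 were called higher, with 279 genes called in all, 4.38%. For AD, 1 gene had an unadjusted p under 0.05, against 19.5% of all genes. The cultures of 7 genes lay above both vehicle cultures, where 22.1% of all genes did, and the fold changes of the 8 ran from -0.31 to 0.26. COX1 had 888 and 889 CPM against 751 and 731 (0.26, 95% interval 0.00 to 0.52, adjusted p = 0.247). With 2 cultures per group, CPT and AD cultures were therefore not shown to differ from their vehicles for these genes.

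**Figure D4:**
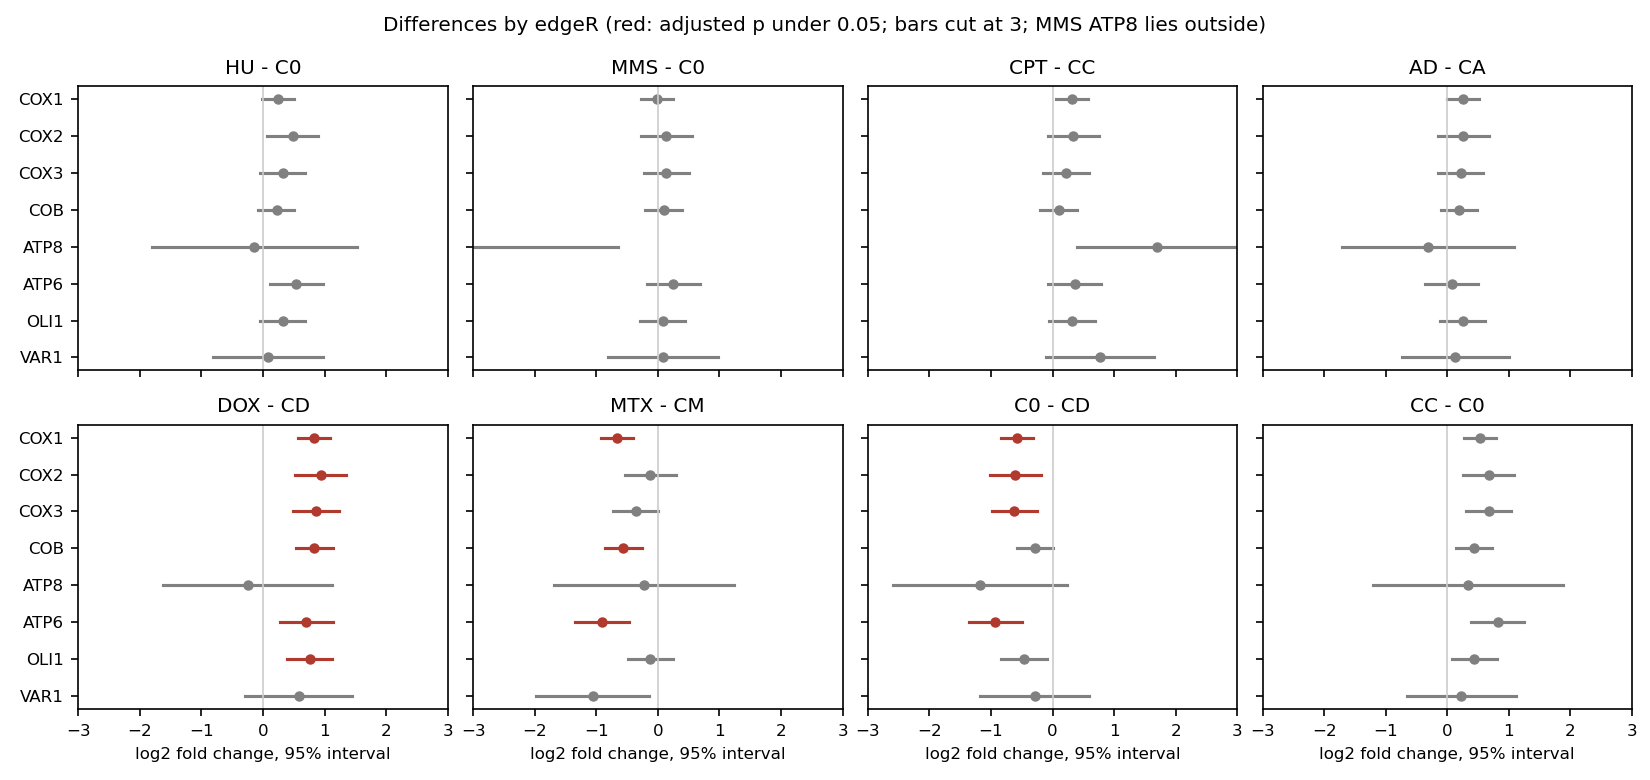
Log2 fold change (x axis) of each gene with its 95% interval in 8 comparisons, from edgeR; red marks an adjusted p under 0.05. DOX has 6 red genes to the right of 0, MTX 3 and C0 against CD 4 to its left, and ATP8 has the widest intervals.

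**Figure D5:**
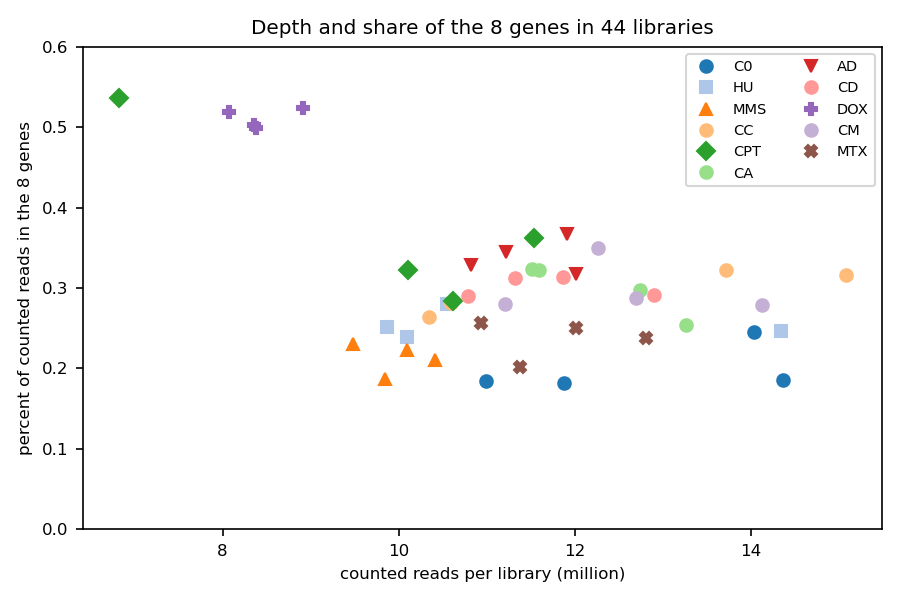
Counted reads per library in units of 1000000 (x axis) and percent of them in the 8 genes (y axis) for the 44 libraries, by group. The 4 DOX libraries and the shallow CPT library, at 0.499% to 0.536%, are also the 5 libraries with the fewest counted reads.

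Of the 20 other rows of the mitochondrial genome, 5 passed the filter on low counts. Under DOX, Q0182 and Q0297 rose, and under MTX the row of SCEI, the endonuclease gene in the intron of the large ribosomal RNA, and Q0182 fell. In C0 against CD, SCEI and Q0010 were lower, and Q0010 had a median of 2 counts per library and at most 11. Of all genes, 41.2%, 19.8% and 20.1% passed in these comparisons, in that order.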

How the data were processed

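The labels describe 44 RNA-seq libraries of W303 yeast in 11 groups. The authors deposited whole-number counts per feature, made with featureCounts 1.6.0 per the file headers, on sacCer3 transcripts as single intervals, without strand, pair or multi-overlap options, so a read over more than 1 row was left out, both mates counted, and antisense reads cannot be told apart. Alignment names in the headers contain bowtie2 and non-redundant, which points to removal of duplicates, a step that can lower abundant genes more in deeper libraries. No header or label used here states the aligner's version. Deposited log2 fold changes and adjusted p-values are the authors' own, and are named where used. Their replicate unit, culture or technical library, was not established here. No columns of other samples were present. Totals were 6.82 to 15.08 M counts (M, 1000000).

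Counts of the technical libraries were summed per culture. edgeR 4.0.16 (R 4.3.3) kept 6344 of 6692 features (filterByExpr, minimum count 10, total 15), scaled by TMM, and ran quasi-likelihood tests with 1 mean per group over 22 cultures. The adjusted p threshold was 0.05. The biological coefficient of variation was 0.156 and residual degrees of freedom 11. Standard errors were taken from the F statistic. Simulated data left 6140 of 6340 genes unchanged. For DOX against CD, 72.1% of genes changed by 2-fold and 19% of those changed by 1.5-fold were recovered. For MTX against CM these shares were 78.9% and 15.9%, so changes near 1.5-fold were often missed in the simulation. In the data, 41.2% and 19.8% of genes were called, which makes the adjustment less strict, so these rates do not carry over. Alternatives used DESeq2 1.42.0, RLE scaling, scaling from nuclear features, no filter, blocks on the culture number, and leaving out each culture. Per kilobase values divide by the counted stretch. All 8 genes had the same coordinates in RefSeq R64 as in the files. 1 CM library carries differing technical numbers in its title and description, and the title was followed. The labels call the cultures independent experiments.

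The members and gene lists were chosen with earlier results of these data known. The genes named are all 8 members, up to 2 called genes per list and direction with the smallest p, and the 5 nuclear genes most like the mean of the 8. The comparison of responses was added after the data were seen.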

Additional observations from a re-analysis of the deposited data

Results flagged for a closer look

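Over the 4 libraries of each group, 88 sets of values (8 genes in 11 groups) were examined for 1 library far from the rest of its group, where chance alone flags about 1 in 20 sets of independent values. The 4 libraries are technical pairs from 2 cultures and are not independent, so that rate does not hold here. There were 6. In counts per 1000000 reads of the library total, the first technical library of C0 culture 1 had 618 for COX1 against 450 to 461 in the others, and 727 for COX3 against 546 to 565. The first technical library of HU culture 1 had 492 for OLI1 against 403 to 418. The second technical library of CPT culture 2 had 42.1 for VAR1 against 4.24 to 8.49, and 4.69 for ATP8 against 0.188 to 0.953. The second technical library of MMS culture 2 had 0.0991 for ATP8, a single count, against 0 in the others.

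Responses that differed between agents in SC, each set against its own vehicle, were flagged where the difference of log2 fold changes passed the edgeR test over all genes. MTX minus DOX gave -1.50 for COX1 (adjusted p = 3.63e-05), -1.61 for ATP6 (adjusted p = 0.00105), -1.39 for COB (adjusted p = 0.000199), -0.89 for OLI1 (adjusted p = 0.017), -1.06 for COX2 (adjusted p = 0.0121) and -1.22 for COX3 (adjusted p = 0.00244). MTX minus AD gave -0.93 for COX1 (adjusted p = 0.00465), -0.98 for ATP6 (adjusted p = 0.0461) and -0.75 for COB (adjusted p = 0.0302), where 8.29% of all genes passed. DOX minus AD gave none among the 8, with 0.57 for COX1 (adjusted p = 0.0666), where 5.28% of all genes passed.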

How the results depend on the processing

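Of 894 values of the 8 genes under the alternatives, 860 kept their direction where called and their side of the threshold, 15 were no longer called, 19 became called and 0 called values changed sign. RLE scaling, scaling from nuclear features and the absence of a filter changed no call among the 8. The number of genes called out of all tested moved more. With DESeq2 it was 360 for HU (226 in the edgeR fit), 317 for CPT (178), 430 for AD (199), 221 for CC against C0 (14) and 1 for CA against CD (0). With the groups of a comparison fitted alone it was 29 for CPT, 0 for AD, 2261 for MTX (1259), 3 for CC against C0 and 38 for CM against CD (0). Over the left-out cultures the number ranged from 61 to 111 for HU, 302 to 517 for MMS (683), 51 to 279 for CPT, 10 to 243 for AD, 1722 to 1859 for DOX (2615), 513 to 739 for MTX, 219 to 1332 for C0 against CD (1274), 0 to 137 for CC against C0 and 0 to 2 for CA against CD. The cause was not tested. The level of the 8 genes together in CD was 0.306% when set against reads of features other than mitochondrial and ribosomal genes, and 0.301% to 0.302% with either culture left out. With a culture left out it was 0.303% to 0.427% in CPT, the widest range, and 0.273% to 0.319% in CC.

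The labels do not say that a culture number marks a shared day, and only 2 numbers exist per group. Differences between cultures 1 and 2 correlated between treated and vehicle at 0.344 for HU, 0.057 for MMS, 0.486 for CPT, 0.709 for AD, 0.155 for DOX and -0.237 for MTX. A replicate block over all groups gave 212, 674, 172, 195, 2598 and 1242 called genes in that order and changed no call among the 8. A replicate block within each vehicle and its treatments, added after the data were seen, gave 552, 1239, 537, 892, 3275 and 2056, with 114 for CC against C0 and 1 for CA against CD. It added COX2 in HU and COX3 and VAR1 in MTX. Crossing the CM numbers in that replicate block gave 2278 called genes for MTX. Low counts limit ATP8 in every comparison. VAR1, fitted with the 2 groups alone, was called in DOX (0.58, adjusted p = 0.0102) and MTX (-1.01, adjusted p = 0.00215).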
